A study of Mus musculus with 30 samples.

Results

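The genes described here are the cytokines, the chemokines and their receptors that could be measured in blood leukocytes of mice after 1 injection of cyclophosphamide. They were taken by name: array probes with 1 gene symbol that begins as a CC or CXC chemokine or its receptor, an interleukin or its receptor, a TNF ligand or receptor, a colony stimulating factor, an interferon or a TGF beta family gene. The rule left out Ccl2, Ccr9, Cxcr4, Il1rn, Il4, Csf3r and Tnfrsf10b, and 141 symbols remained of 148. Of these, 62 had a value in at least 2 samples at day 5 and in at least 3 of each other group, among 6515 features that met the same requirement.

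All mice were of the inbred strain DBA/2. One group was untreated (4 samples), and the others had received 83 mg per kg cyclophosphamide intraperitoneally 1 day (4 samples), 2 days (4 samples) or 5 days (3 samples) before the blood was taken. Samples were independently harvested per the labels, while the sources used here do not give the age, the sex or whether a sample was 1 animal or a pool. RNA of each blood sample carried the dye Cy5 and was hybridised together with a Cy3-labelled RNA of bone marrow cells of the same strain. Every value below is therefore a log2 ratio of blood over that marrow pool, averaged over 2 technical replicates. The cell type label calls the pool untreated, whereas a treatment label of the same channel names cyclophosphamide. The pool is taken as the same on every array and so drops out of differences between groups. A log2 ratio is not an abundance, and ratios of different genes cannot be ranked as levels.

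Cyclophosphamide is an alkylating prodrug, activated in the liver, that kills dividing lymphoid and marrow progenitor cells and lowers the white blood cell count for several days. Cytokines are secreted or membrane-bound proteins through which leukocytes signal to each other. Interleukin, interferon and colony stimulating factor receptors act mostly through JAK kinases and STAT factors, whereas TNF and IL-1 family receptors act through adaptors that lead to NF-kappaB. Chemokines bind receptors coupled to G proteins and direct the migration of leukocytes, and TGF beta receptors signal through SMAD proteins. Many of these genes are restricted to 1 or a few leukocyte types, so that their level in whole blood also follows which cells circulate. In such bulk samples, fewer cells of a type and less RNA per cell cannot be told apart.

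Coverage of the family was uneven. All 8 tested CC ligands came from 18 symbols, the 9 CXC ligands from 11, the 6 chemokine receptors from 12, the 8 interleukin receptor chains from 24 and the 14 interleukins and antagonists from 28. The TNF family gave 3 ligands of 10 symbols and 5 receptors of 16. Colony stimulating factors and receptors gave 2 of 6 symbols, interferons and receptors 5 of 11, and the TGF beta family 2 of 5. Of the 79 symbols not tested, 27 had no value in any of the 15 samples, 32 had 1 to 7 values and 20 had 8 or more. The sources used here do not say why values are empty, and no intensity accompanies the ratios, so it cannot be said whether a given probe stood above background. Among the 62 genes, 45 had all 15 values and 17 had fewer.

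Libraries differed in how often they were at an end of their group's range. Of 58 of these genes with a value in all 4 untreated samples, untreated replicate 4 was the highest in 24 and untreated replicate 2 the lowest in 29. They were at either end in 50% and 60.3% of these genes, beside 51.7% and 49.2% of all features. Untreated replicate 4 was thus at an end no more often here than over all features. The counts of highest or of lowest values alone were not taken over all features. Day 1 replicate 3 had a value for 54 of the 62 genes and was the lowest of its group in 23 of 54 genes, at either end in 66.7% of genes, beside 60.7% of all features. Day 2 replicate 2 was the lowest in 20 of 49 genes and at either end in 63.3%, beside 51.6% of all features. Day 2 replicate 1 had a value for 52 of the 62 genes. Across features, r between technical replicates ran from 0.827 to 0.956. They differed by a median of 0.203 on the log2 scale over the 62 genes and of 0.165 over all tested features, against a median pooled SD between samples of 0.241 for the 62 genes. The difference is between 2 single values and the SD is of their means, so the 2 quantities are not on 1 scale. Among the 15 genes called in a comparison, the mean technical difference ran from 0.06 for Tnfsf13 to 0.36 for Tnfrsf22. It was 0.29 for Cxcl16, 0.28 for Ccl9 and 0.26 for Cxcr3.

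Marker lists of leukocyte types moved with the groups. The neutrophil list (Csf3r, S100a9, Trem1, Fpr2 and Mmp9) ran from -0.72 to -0.29 in untreated samples, from -0.37 to 0.02 at day 1, from 0.35 to 1.18 at day 2 and from -1.13 to -0.59 at day 5, as its mean log2 ratio per sample. The monocyte list (Adgre1, Mpeg1, Ms4a6c and F13a1) ran from 0.66 to 1.20 in untreated samples, from 0.15 to 0.68 at day 1, from -0.24 to -0.15 at day 2 and from 0.63 to 0.88 at day 5. In the day 2 samples, 5 of 5 tested neutrophil markers rose and 5 of 6 tested monocyte markers fell against untreated samples. Of all features, 4.83% were called higher and 7.84% lower in that comparison. B cell markers ranged from -0.33 to 0.02 at day 5 and from 0.25 to 0.70 in untreated samples, and 3 of 6 tested ones (Ms4a1, Cd22 and Fcmr) fell at day 5. The other 3 had uncalled positive changes: 0.44 for Cd72, 0.07 for Fcer2a and 0.17 for Blk. The part of these shifts in the changes below was not tested, and a log ratio has no zero level at which a marker could be called absent.

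**Figure D1:**
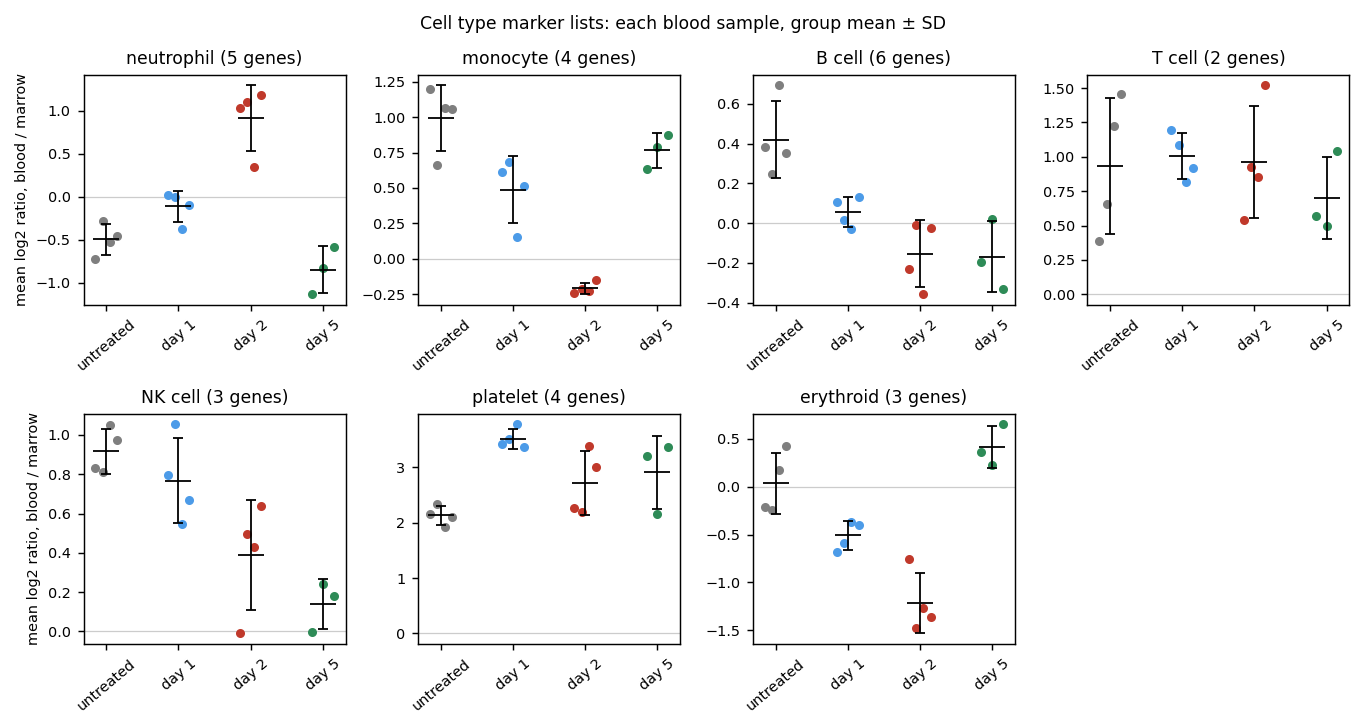
Mean log2 ratio of blood over marrow for 7 lists of cell type markers, with 1 point per blood sample and the group mean ± SD (4 samples per group, 3 at day 5). The neutrophil list stood highest at day 2, where it lay between 0.35 and 1.18, and the monocyte list stood lowest there, between -0.24 and -0.15.

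Start site windows are shown for Il1rap, Tnfsf13 and Il18bp, which had large changes at day 2, and for the neutrophil chemokines Cxcl1 and Cxcl2, which varied together over the samples. Each window holds 250 bases before and 50 after the start of the gene, 5′ to 3′ on the strand of the gene, from RefSeq on GRCm38.p6. Il1rap lies at chr16:26581455-26581754 on the plus strand, Tnfsf13 at chr11:69685505-69685804 on the minus strand and Il18bp at chr7:102018183-102018482 on the minus strand. Cxcl1 lies at chr5:90890995-90891294 and Cxcl2 at chr5:90903649-90903948, both on the plus strand. Capitals mark the IRF motif in Il1rap, the C/EBP motif in Il18bp and the NF-kappaB motif, read on both strands with overlapping matches, in Cxcl1 and Cxcl2. Tnfsf13 held none of the 5 motifs searched.
Il1rap: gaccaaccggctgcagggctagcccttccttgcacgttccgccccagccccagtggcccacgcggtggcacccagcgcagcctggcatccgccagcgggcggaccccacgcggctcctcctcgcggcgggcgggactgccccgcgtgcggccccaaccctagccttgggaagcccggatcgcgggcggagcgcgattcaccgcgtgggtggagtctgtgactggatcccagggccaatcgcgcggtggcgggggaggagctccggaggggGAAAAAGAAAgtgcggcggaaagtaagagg
Tnfsf13: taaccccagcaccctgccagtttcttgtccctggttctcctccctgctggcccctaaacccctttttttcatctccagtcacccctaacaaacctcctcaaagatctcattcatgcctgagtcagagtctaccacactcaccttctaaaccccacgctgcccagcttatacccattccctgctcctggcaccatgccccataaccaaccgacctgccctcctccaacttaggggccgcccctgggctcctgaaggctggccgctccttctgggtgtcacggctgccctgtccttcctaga
Il18bp: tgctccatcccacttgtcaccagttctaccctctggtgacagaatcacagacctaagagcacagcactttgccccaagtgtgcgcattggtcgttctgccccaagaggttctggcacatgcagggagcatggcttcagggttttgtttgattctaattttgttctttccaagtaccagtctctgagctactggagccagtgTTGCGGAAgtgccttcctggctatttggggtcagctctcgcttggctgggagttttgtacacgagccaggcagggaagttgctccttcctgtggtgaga
Cxcl1: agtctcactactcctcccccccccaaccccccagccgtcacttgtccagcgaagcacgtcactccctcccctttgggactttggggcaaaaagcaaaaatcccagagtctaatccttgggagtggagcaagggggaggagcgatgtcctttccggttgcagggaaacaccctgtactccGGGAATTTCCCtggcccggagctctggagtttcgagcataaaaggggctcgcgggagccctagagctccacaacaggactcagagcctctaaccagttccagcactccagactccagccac
Cxcl2: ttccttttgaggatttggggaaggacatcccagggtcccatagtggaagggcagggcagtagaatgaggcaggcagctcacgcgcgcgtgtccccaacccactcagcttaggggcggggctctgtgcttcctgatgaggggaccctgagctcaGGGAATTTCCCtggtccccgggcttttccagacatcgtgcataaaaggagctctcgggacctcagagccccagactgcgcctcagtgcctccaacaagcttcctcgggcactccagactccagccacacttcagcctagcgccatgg

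The motifs were searched on both strands of the 59 windows found for 50 of the 62 genes, of which 12 belong to genes called in a comparison. The STAT motif TTCNNNGAA was in 8 of the 59 windows and 0 of the 12, against 8.3% of all 32851 windows. The NF-kappaB motif, GGGA and 2 bases later TTCC, was in 7 of the 59 windows and 0 of the 12, against 1.47% of all. Those 7 belong to Ccr3, Csf1, Cxcl1, Cxcl2, Cxcl10, Il6 and Il16. The IRF motif, GAAA and 2 bases later GAAA again, was in 6 of the 59 windows and in that of Il1rap among the 12, against 3.44% of all. The PU.1 motif GAGGAAGT was in the window of Cxcr3 alone, against 3.2% of all. The C/EBP motif TTGCNNAA was in 10 of the 59 windows, among them those of Il18bp, Il3ra and Tgfbr2, against 10.8% of all. A match of letters is a description of the sequence and not evidence that a factor binds there.

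Against untreated samples most calls in this family came at day 2, but the share of its genes called was near or below that of all genes in each comparison. A gene was called where the moderated test of limma gave an adjusted p under 0.05, with Benjamini-Hochberg adjustment over all 6515 features. At day 1 against untreated samples, 2 of the 62 genes were called (3.23%), with 4.6% of all tested features called. At day 2 against untreated samples, 9 were called (14.5%), with 12.7% of all features called. At day 5 against untreated samples, 0 were called, with 1.09% of all features called, and 7 of the 62 had an unadjusted p under 0.05. Between day 5 and day 2, 12 were called (19.4%), with 25.5% of all features called. The F test of any difference between the 4 groups called 13 (21.0%), with 22.7% of all features called.

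The split by direction was uneven at day 2. There 6 genes rose (9.68%), with 4.83% of all features called higher, and 3 fell (4.84%), with 7.84% called lower. In the comparison of day 5 with day 2, 5 were higher (8.06%), with 12.8% of all features called higher, and 7 were lower (11.3%), with 12.7% called lower. At day 1 there was 1 call in each direction, with 2.29% of all features called higher and 2.32% lower. Against untreated samples, the median log2 change of the 62 genes was 0.11 (day 1), 0.05 (day 2) and -0.07 (day 5), beside 0.03, 0.06 and 0.0044 over all tested features. For day 5 minus day 2 it was -0.18, beside -0.07 over all features. Values of the groups did not overlap for 7 genes at day 1 (18.3% of all features), 13 at day 2 (21.4%) and 5 at day 5 (13.6%) against untreated samples, and for 18 between day 5 and day 2 (30.4%). Each of these shares is near or below that of all features. The comparisons with untreated samples share the same 4 controls, and the comparison of day 5 with day 2 shares the day 2 samples.

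**Figure D2:**
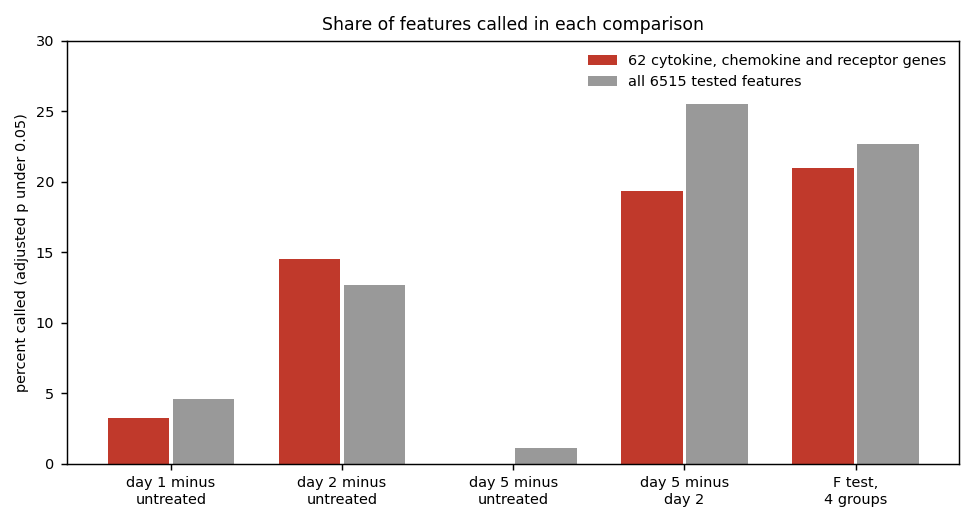
Percent of genes called at an adjusted p under 0.05 in each of 4 comparisons and in the F test, for the 62 cytokine, chemokine and receptor genes (left bars) and for all 6515 tested features (right bars). The 2 bars are close at day 2 (14.5% and 12.7%), and no gene of the family was called at day 5 against untreated samples.

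**Figure D3:**
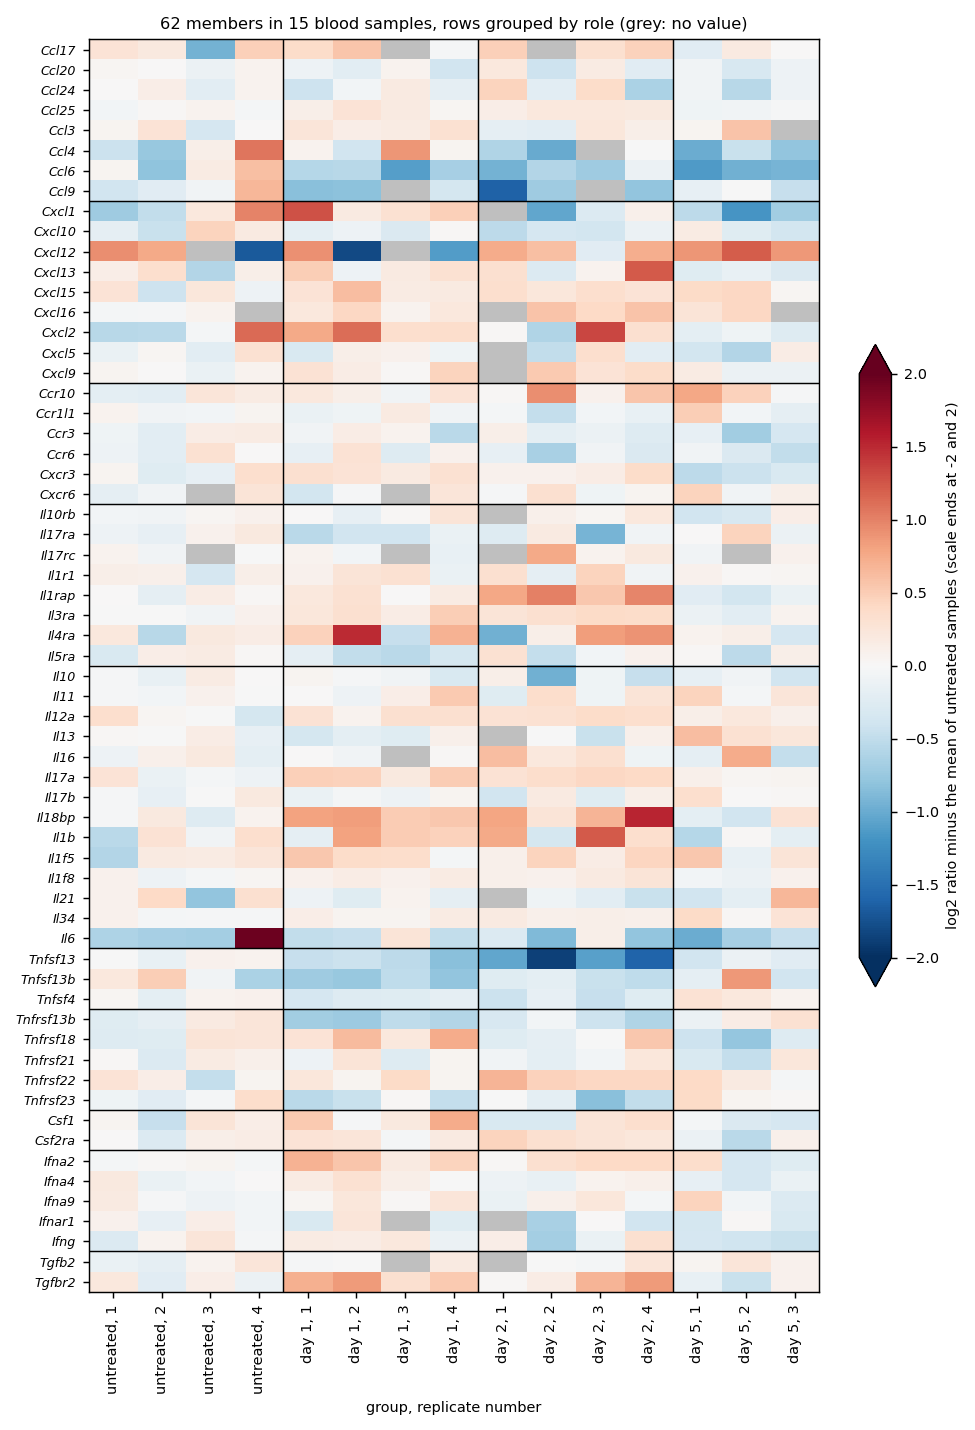
Log2 ratio minus the mean of the untreated samples for each of the 62 genes (rows, grouped by role) in each of the 15 blood samples (columns), with missing values in grey. Il1rap is higher and Tnfsf13 lower in all 4 day 2 samples, and the Il6 value of untreated replicate 4 (1.90) stands out from its row.

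Among CC chemokine ligands, 1 of 8 was called at day 2 and 0 at day 1. Ccl9, a mouse chemokine that attracts monocytes and other cells through Ccr1, had log2 ratios of -0.59, 0.32 and 0.25 in 3 day 2 samples, against 0.65, 0.81, 0.96 and 1.70 in untreated samples. All 3 day 2 values lay below all untreated ones, and Ccl9 fell by 1.04 on the log2 scale (SE 0.26, adjusted p = 0.020). At day 5 its ratios were 0.86, 1.03 and 0.56, above every day 2 value, and the change from day 2 to day 5 was 0.83 (SE 0.28, adjusted p = 0.046). Without day 2 replicate 1, the lowest of the 3 values, the changes were -0.75 and 0.54 and neither was called. The earlier call was lost in 2 of 21 other settings and the later call in 10. For the later call these included leaving out untreated replicate 2 or 3, day 1 replicate 1 or 2, or day 2 replicate 3 (0.83 each). They also included leaving out day 5 replicate 1 (0.80) or 2 (0.72).

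At day 1 Ccl9 changed by -0.67 (SE 0.26, adjusted p = 0.16) and was not called. Ccl6, a closely related rodent chemokine, had a similar day 1 change but lay below all untreated values at day 5, unlike Ccl9. It did not pass the test against untreated samples at any time. Its ratios were 0.13, 0.30 and 0.33 in day 5 samples, against 1.30, 0.44, 1.41 and 1.85 in untreated samples, with no overlap. The change was -1.0 (SE 0.26, adjusted p = 0.078), after -0.72 at day 1 and -0.59 at day 2. Without untreated replicate 2, whose 0.44 is the lowest untreated value, the changes were -0.99 at day 1, -0.86 at day 2 and -1.27 at day 5, and each was called. With quantile normalization they were -0.87, -0.77 and -1.16 and were also called. Of the other CC ligands, Ccl4, a monocyte and T cell attractant, changed by -0.54 (SE 0.38) at day 2 and -0.74 (SE 0.38) at day 5, and Ccl17 by -0.43 (SE 0.29) between day 5 and day 2, none of them called. Without untreated replicate 4, at 1.58 the highest control, the changes of Ccl4 were -0.19 and -0.39.

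Among CXC ligands, 1 of 9 was called at day 2 against untreated samples and 1 between day 5 and day 2. Cxcl16, the membrane-bound ligand of Cxcr6, had ratios of 0.68, 0.51 and 0.66 in 3 day 2 samples, against 0.06, 0.07 and 0.17 in 3 untreated samples. It rose by 0.51 (SE 0.12, adjusted p = 0.015). All values at day 1 (0.18 to 0.51) also lay above the untreated ones, though the lowest barely did (0.176 beside 0.171). Technical replicates of Cxcl16 differed by 0.29 on average. Its locus overlaps Zmynd15 in the gene table, and the probe sequence that would separate them is not used here. Cxcl9, an interferon-induced ligand of Cxcr3, had ratios of 0.20, -0.08 and -0.09 at day 5, against 0.54, 0.30 and 0.40 in 3 day 2 samples, and fell by 0.41 (SE 0.14, adjusted p = 0.039). Its day 2 values also exceeded all untreated ones (-0.11 to 0.09), but the change of 0.39 against untreated samples was not called (adjusted p = 0.060). The call between day 5 and day 2 was lost in 12 of 23 other settings, among them without untreated replicate 2, day 1 replicate 1 or day 2 replicate 4 (-0.41 each), day 2 replicate 2 (-0.34), or day 5 replicate 2 or 3 (-0.36 each). Cxcl16 at day 2 was lost with technical replicate 2 alone (0.30) and with the replicate block (0.49).

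The neutrophil attractants Cxcl1 and Cxcl2 and the stromal chemokine Cxcl12 had wide spreads between samples of 1 group. Cxcl1 was 1.78, 0.69, 0.81 and 0.98 in day 1 samples, against -0.21, 0.02, 0.72 and 1.51 in untreated samples. Cxcl2 was 1.56, 1.93, 1.14 and 1.16 in day 1 samples, against 0.24, 0.26, 0.77 and 1.94 in untreated samples. In both genes untreated replicate 4 was the highest control. For Cxcl1 it lay within the day 1 range, as did untreated replicate 3. For Cxcl2 it lay just above the highest day 1 value. The day 1 change of Cxcl2 was 0.64 (SE 0.38, adjusted p = 0.36), and the changes of Cxcl1 were -0.40 at day 2 and -0.80 at day 5 (SE 0.38 each), not called. Without untreated replicate 4 they were -0.07 and -0.47. Cxcl12 ran from -2.91 to -0.20 in 3 day 1 samples and from -2.78 to -0.18 in 3 untreated samples, and its changes of -0.67 (day 1), 0.46 (day 2) and 0.99 (day 5) had standard errors of 0.63 to 0.67. Without untreated replicate 4 these changes were -1.51, -0.38 and 0.15. Cxcl13, the B cell follicle chemokine, changed by -0.57 (SE 0.28, adjusted p = 0.16) between day 5 and day 2, and without day 2 replicate 2 it changed by -0.77 and was called.

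Of 6 chemokine receptors, Cxcr3 was called, in 1 comparison. Cxcr3, found on activated T cells and NK cells, had ratios of -0.24, -0.14 and -0.02 in day 5 samples, against 0.38, 0.37, 0.44 and 0.65 in day 2 samples, with no overlap. It fell by 0.59 between those days (SE 0.13, adjusted p = 0.0043), a call that held in 23 of 24 other settings. The day 5 values also lay below all untreated ones (0.35, 0.05, 0.12 and 0.63), but the change of -0.42 was not called (adjusted p = 0.14). The NK cell marker list (Nkg7, Klrd1 and Eomes) ran from -0.0023 to 0.24 at day 5, from -0.01 to 0.64 at day 2 and from 0.81 to 1.05 in untreated samples, and its part in the Cxcr3 values was not tested. Ccr10, a receptor of skin-homing lymphocytes, changed by 0.40 at day 2 (SE 0.20) and 0.40 at day 5 (SE 0.22), with 2 probes averaged. The day 5 change was -0.13 with 1 probe alone, the one with values in all 15 samples, since the other had values in 8. Ccr6 changed by -0.29 (SE 0.16) at day 2 and the eosinophil receptor Ccr3 by -0.28 (SE 0.17) between day 5 and day 2, neither called.

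The largest rise at day 2 among the 62 genes was in an interleukin receptor chain. Il1rap, the co-receptor that IL-1, IL-33 and IL-36 receptors need to signal, had ratios of 1.10, 1.32, 0.86 and 1.29 in day 2 samples, against 0.33, 0.13, 0.47 and 0.33 in untreated samples. The lowest day 2 value stood well above the highest untreated one, and Il1rap rose by 0.82 (SE 0.12, 95% interval 0.57 to 1.08, adjusted p = 2.98e-04). At day 5 its ratios were 0.09, -0.06 and 0.18, below every day 2 value, and it fell by 1.07 between those days (SE 0.13, adjusted p = 3.05e-05). At day 1 the ratios of 0.52, 0.63, 0.32 and 0.48 overlapped the untreated ones and the change of 0.17 was not called. Both calls held under each of the 24 other settings tried. The locus overlaps the non-coding gene Gm20319 in the gene table, whose signal cannot be told apart here. The neutrophil markers moved the same way at the same times, and their part in this rise was not tested.

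Il3ra, the ligand-binding chain of the IL-3 receptor, was the other receptor chain called. Its ratios were 0.29, 0.37, 0.42 and 0.41 in day 2 samples, against 0.04, 0.03, -0.03 and 0.13 in untreated samples. It rose by 0.33 (SE 0.10, adjusted p = 0.040), and the day 1 values of 0.20 to 0.53 also lay above the untreated range. At day 5 it had -0.07, -0.17 and 0.11 and fell by 0.42 against day 2 (SE 0.11, adjusted p = 0.0096). The call against untreated samples was lost in 12 of 24 other settings, with changes between 0.31 and 0.36. These included leaving out any 1 untreated sample, day 1 replicate 1 or 2, or day 2 replicate 2, 3 or 4. The call between day 5 and day 2 held in 23 of 24. The IL-17 receptor subunits differed in sign without a call: Il17rc changed by 0.34 (SE 0.17) and Il17ra by -0.27 (SE 0.20) at day 2. Il4ra, which binds IL-4 and IL-13, changed by 0.55 (SE 0.40) at day 1, and Il5ra, the eosinophil IL-5 receptor, by -0.39 (SE 0.18) at day 1. Il10rb, a shared chain of IL-10 family receptors, changed by -0.19 (SE 0.14) at day 5.

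Among 14 interleukins and antagonists, 2 rose at day 2 and 1 of these also at day 1. Il18bp, a secreted protein that binds and blocks IL-18, had ratios of 0.35, -0.18, 0.25 and 1.09 in day 2 samples, against -0.46, -0.23, -0.69 and -0.36 in untreated samples. It rose by 0.81 (SE 0.22, adjusted p = 0.023), with day 2 replicate 4 far above and replicate 2 just above the untreated range. The call was lost in 3 of 24 other settings, among them without day 2 replicate 4 (0.57) and without untreated replicate 3 (0.72). All 4 day 1 values (0.07 to 0.40) also exceeded the untreated ones, with a change of 0.67 (SE 0.22, adjusted p = 0.088), which was called in the fit without day 2 replicate 4. At day 5 the ratios of -0.63, -0.82 and -0.14 gave a fall of 0.91 against day 2 (SE 0.24, adjusted p = 0.010). That call was lost in 2 of 24 other settings, the fit of 2 groups and without day 5 replicate 2 (-0.76).

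Il17a, the cytokine of Th17 and gamma delta T cells, was called at 2 times. Its ratios were 0.45, 0.43, 0.17 and 0.48 in day 1 samples, against 0.24, -0.16, -0.06 and -0.13 in untreated samples. It rose by 0.41 at day 1 (SE 0.11, adjusted p = 0.044) and by 0.37 at day 2 (SE 0.11, adjusted p = 0.036), when its ratios were 0.26 to 0.39. The technical replicates of Il17a differed by 0.13 on average. The day 1 call was lost in 12 of 24 other settings and the day 2 call in 11. Both were lost without untreated replicate 2, 3 or 4 or day 2 replicate 3 or 4, with changes of 0.36 to 0.41 at day 1 and 0.32 to 0.36 at day 2. The day 1 call was also lost without day 1 replicate 1, 2 or 4 (0.38 to 0.39), and the day 2 call without day 1 replicate 1 or day 2 replicate 2 (0.37 each). Il13, a type 2 cytokine, was 1.17, 0.86 and 0.79 at day 5, against 0.54, 0.11 and 0.66 in 3 day 2 samples, a change of 0.50 (SE 0.17, adjusted p = 0.038). This call was lost in 7 of 22 other settings, among them without day 2 replicate 3 (0.34) and without day 5 replicate 1 (0.39) or 2 (0.54).

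The classical inflammatory interleukins were not called. Il1b, averaged over 2 probes, was 2.14, 1.04, 2.61 and 1.73 in day 2 samples, against 0.84, 1.67, 1.32 and 1.71 in untreated samples, a change of 0.49 with an interval of -0.14 to 1.13. The 2 probes had means of 1.10 and 2.66 at day 2, against 0.50 and 2.27 in untreated samples. Il1b changed by -0.74 between day 5 and day 2 (SE 0.32, adjusted p = 0.10), and without day 2 replicate 2 by -1.02, which was called. Il6 was -0.34, -0.95, 0.05 and -0.85 in day 2 samples, against -0.69, -0.72, -0.74 and 1.90 in untreated samples. Its change of -0.46 at day 2 was set by untreated replicate 4, without which it was 0.20.

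The largest fall at day 2 among the 62 genes was in a TNF family ligand. Tnfsf13, known as APRIL and a survival factor for plasma cells and B cells, had ratios of -0.95, -1.78, -0.99 and -1.51 in day 2 samples, against 0.08, -0.05, 0.17 and 0.16 in untreated samples. It fell by 1.40 (SE 0.17, 95% interval -1.75 to -1.04, adjusted p = 8.14e-05). At day 5 its ratios were -0.30, -0.02 and -0.14, all above the day 2 values, with a change from day 2 of 1.15 (SE 0.18, adjusted p = 2.36e-04). All 4 day 1 values (-0.75 to -0.35) lay below the untreated ones as well, with a change of -0.57 (SE 0.17, adjusted p = 0.061). That day 1 change was called in 5 of the other settings, among them without day 2 replicate 1 or 2 (-0.57 each). Technical replicates of Tnfsf13 differed by 0.06 on average, and both calls held under each of the 24 other settings. The monocyte markers fell and returned at the same times. So did the erythroid list (Alas2, Hba-a1 and Bnip3l). It ran from -0.24 to 0.42 in untreated samples and from -0.69 to -0.37 at day 1. At day 2 it ran from -1.48 to -0.76 and at day 5 from 0.22 to 0.65. Of 4 tested erythroid markers, 2 were called lower at day 2 (7.84% of all features) and 1 changed upward. The part of either list in the change of Tnfsf13 was not tested. In the gene table Tnfsf13 overlaps the read-through gene Tnfsfm13 and the antisense gene Tnfsf13os, and with the probe sequence not given here their signals cannot be told apart.

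At day 2 the other TNF ligands changed less. Tnfsf4, the OX40 ligand that costimulates T cells, had ratios of 0.13, 0.40, 0.10 and 0.32 in day 2 samples, against 0.60, 0.37, 0.63 and 0.65 in untreated samples. It fell by 0.33 (SE 0.10, adjusted p = 0.0497), with overlapping ranges, and that call was lost in 17 of 24 other settings, with changes of -0.35 to -0.28. Of these, 11 left out a sample: untreated replicate 1, 3 or 4, any 1 day 1 sample, day 2 replicate 1, 3 or 4 or day 5 replicate 2. The other 6 were either technical replicate alone, no requirement on missing values, the robust prior, the replicate block and the fit of 2 groups. Against day 2 it rose by 0.52 at day 5 (SE 0.11, adjusted p = 0.0032), when its ratios were 0.86, 0.77 and 0.63, and this call held in each of the 24. Tnfsf13b, the B cell survival factor BAFF, had ratios of -1.25, -1.30, -1.05 and -1.33 in day 1 samples, against -0.33, -0.05, -0.61 and -1.18 in untreated samples. Its change of -0.69 (SE 0.25, adjusted p = 0.12) was not called, and untreated replicate 4 lay within the day 1 range. Without day 5 replicate 2 the same -0.69 was called.

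Of 5 TNF receptor genes, 1 was lower at day 1 and 1 higher at day 2. Tnfrsf13b, the receptor TACI that binds both Tnfsf13 and Tnfsf13b on B cells, had ratios of -0.53, -0.56, -0.34 and -0.41 in day 1 samples, against -0.08, -0.01, 0.35 and 0.41 in untreated samples. It fell by 0.63 (SE 0.14, adjusted p = 0.026) with no overlap. The call was lost in 6 of 24 other settings. These included leaving out untreated replicate 3 (-0.57) or 4 (-0.55) or day 1 replicate 1 (-0.61), 2 (-0.60) or 4 (-0.65). The B cell marker list ran from -0.03 to 0.13 at day 1 and from 0.25 to 0.70 in untreated samples, and its part in the fall was not tested. At day 5 Tnfrsf13b had 0.05, 0.32 and 0.47 and rose by 0.46 against day 2 (SE 0.16, adjusted p = 0.042), when the B cell list ran from -0.33 to 0.02 at day 5 and from -0.36 to -0.01 at day 2. The B cell markers moved in opposite directions between those days, with Cd72 (1.81) and Fcer2a (0.49) called higher and Ms4a1 (-0.90), Fcmr (-0.79) and Cd22 (-0.61) called lower. The rise of Tnfrsf13b was lost as a call in 12 of 24 other settings. These included leaving out day 1 replicate 1, 2 or 4 (0.46 each), day 2 replicate 1 (0.47), 3 (0.44) or 4 (0.37), or day 5 replicate 2 (0.44) or 3 (0.36). The gene overlaps Usp22 in the gene table.

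Tnfrsf22, a mouse decoy receptor for TRAIL, had ratios of 0.55, 0.34, 0.29 and 0.28 in day 2 samples, against 0.15, 0.01, -0.59 and -0.07 in untreated samples. It rose by 0.49 (SE 0.15, adjusted p = 0.046), a call that was lost in 16 of 24 other settings. Of these, 11 left out a sample (untreated replicate 2, 3 or 4, day 1 replicate 1, 2 or 4, any 1 day 2 sample or day 5 replicate 2), with the lowest change (0.33) without untreated replicate 3. The other 5 were either technical replicate alone, quantile normalization, no requirement on missing values and the fit of 2 groups. The related decoy receptor Tnfrsf23 changed by -0.38 (SE 0.18, adjusted p = 0.20) at day 2, opposite in sign and not called. Tnfrsf18, or GITR, a receptor of activated and regulatory T cells, changed by 0.47 (SE 0.19) at day 1 and -0.48 (SE 0.21) at day 5, neither called. The F test over the 4 groups did call it, as it did Ccl6.

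**Figure D4:**
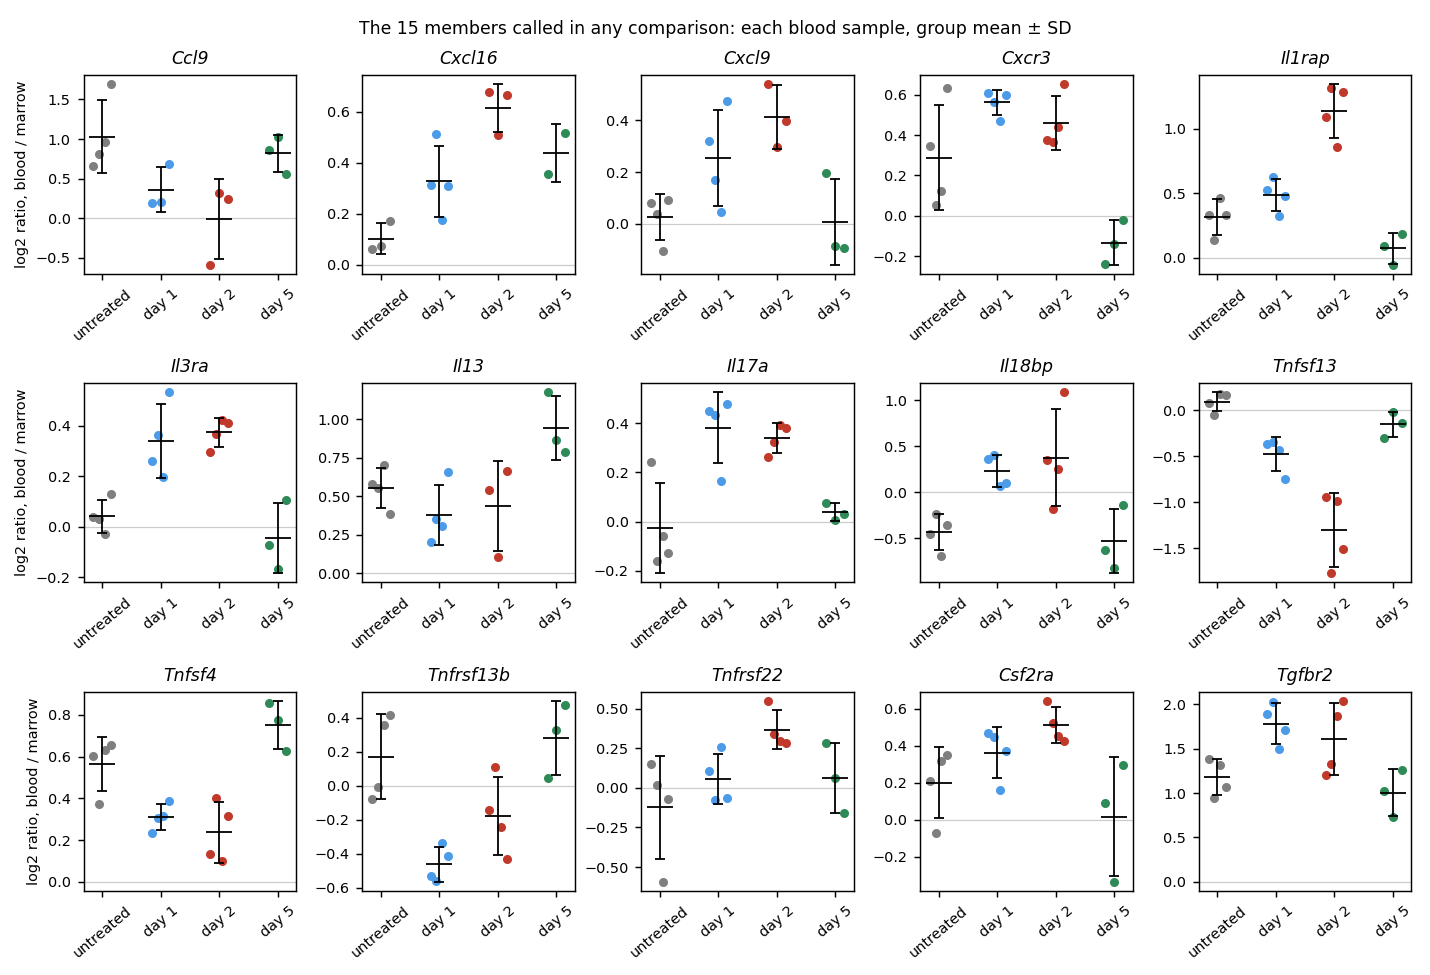
Log2 ratio of blood over marrow for the 15 genes called in any comparison, with 1 point per blood sample and the group mean ± SD (up to 4 samples per group, 3 at day 5). Il1rap peaked and Tnfsf13 was lowest at day 2, and both stood near the untreated range at day 5.

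The smaller groups gave few calls. Csf2ra, the ligand-binding chain of the GM-CSF receptor, had ratios of 0.09, -0.34 and 0.30 in day 5 samples, against 0.64, 0.52, 0.45 and 0.43 in day 2 samples. It fell by 0.49 (SE 0.15, adjusted p = 0.023), and the call was lost in 4 of 24 other settings. These included leaving out day 5 replicate 2 (-0.32) or day 2 replicate 1 (-0.45). Csf1, the macrophage growth factor, changed by 0.36 (SE 0.20) at day 1, not called. Tgfbr2, the ligand-binding receptor of TGF beta, had ratios of 1.03, 0.73 and 1.26 in day 5 samples, against 1.20, 1.33, 1.86 and 2.04 in day 2 samples. It fell by 0.60 (SE 0.20, adjusted p = 0.041), with the ranges overlapping. The call was lost in 11 of 24 other settings. These included leaving out day 1 replicate 1 or 4 (-0.60 each), day 2 replicate 3 (-0.52) or 4 (-0.46), or day 5 replicate 1 (-0.61) or 2 (-0.47). Its day 1 values of 1.5 to 2.03 lay above all untreated ones (0.95 to 1.38), with a change of 0.60 (SE 0.19, adjusted p = 0.078). The uncalled changes of Tgfbr2 against untreated samples were 0.43 (SE 0.19, adjusted p = 0.16) at day 2 and -0.17 (SE 0.20) at day 5. Without day 2 replicate 4 the former was 0.28, and without day 5 replicate 2 the latter was -0.04. Tgfb2, one of its ligands, changed by 0.05 to 0.13 against untreated samples (SE 0.13 each).

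Of 5 interferon and interferon receptor genes, limma called 0 in each comparison, and 1 had an unadjusted p under 0.05 at day 1 and 1 between day 5 and day 2. Ifna2 was 0.71, 0.57, 0.20 and 0.47 in day 1 samples, against -0.01, 0.05, 0.07 and -0.02 in untreated samples, a change of 0.47 (SE 0.15, adjusted p = 0.086) without overlap. It was called without day 1 replicate 3 (0.56) and without day 5 replicate 1 (0.47). Alpha interferon genes are near-identical copies, so a probe named for one may also bind others. Ifng, the interferon of T and NK cells, was -0.51, -0.57 and -0.62 in day 5 samples, against -0.45, -0.10, 0.07 and -0.21 in untreated samples, a change of -0.40 (SE 0.19, adjusted p = 0.30). Ifnar1, a chain of the alpha and beta interferon receptor, changed by -0.34 (SE 0.18) at day 2.

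**Figure D5:**
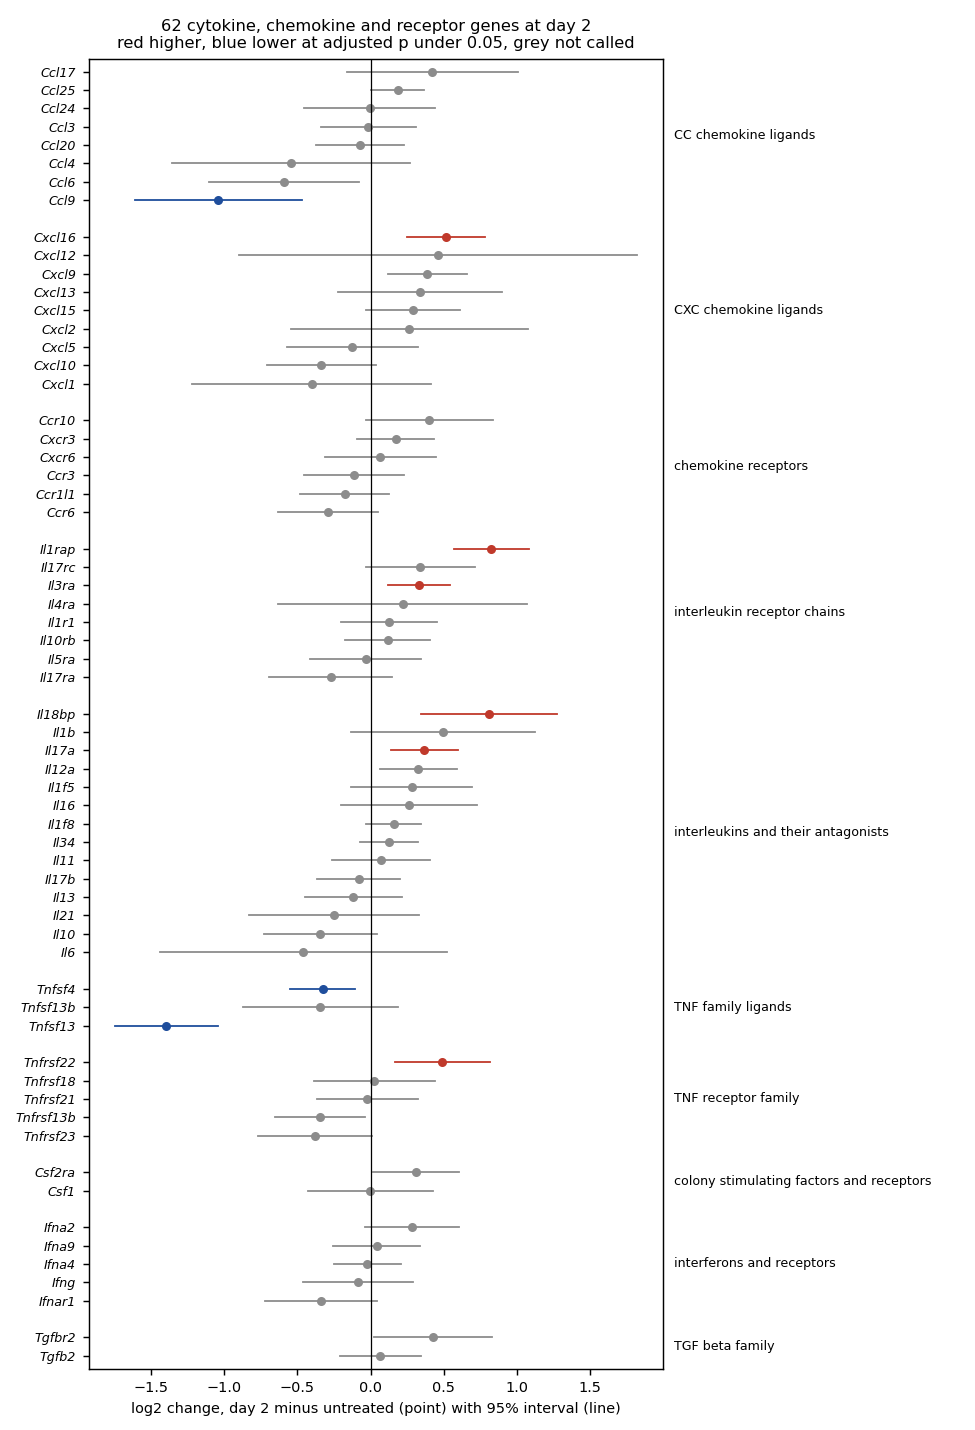
Log2 change at day 2 minus untreated for each of the 62 genes by role, as the estimate (point) with its 95% interval (line). Red marks the 6 genes called higher and blue the 3 called lower. Il1rap (0.82) had the largest rise and Tnfsf13 (-1.40) the largest fall, followed by Ccl9 (-1.04), all with intervals clear of 0.

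The day 2 calls and the later comparison overlapped by gene. Of the 9 genes called at day 2 against untreated samples, 6 were among the 12 called between day 5 and day 2: Ccl9, Il18bp, Il1rap, Il3ra, Tnfsf13 and Tnfsf4. Because both comparisons use the same day 2 samples, a high or low day 2 value moves them in opposite directions. Against untreated samples at day 5, those 6 genes had changes of -0.21, -0.10, -0.25, -0.09, -0.24 and 0.19 in that order, with adjusted p between 0.35 and 0.87. The half-width of the 95% interval of the day 5 change ran from 0.20 to 1.45 over the 62 genes, with a median of 0.39. The limit for a call after adjustment over all features was wider than these intervals. For Ccl6, the change of -1.0 had an interval of -1.56 to -0.45 and was not called. The absence of calls does not show a return to the untreated level.

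The other uncalled changes that ranked first or second in their role follow, some of them near 0 in roles with few genes. At day 1, Tnfrsf23 changed by -0.36, Csf2ra by 0.16, Il1b by 0.40, Cxcr3 by 0.27, Ccr10 by 0.13 and Ifna4 by 0.14. At day 2, Csf2ra changed by 0.31, Ifna2 by 0.29, Tnfsf13b by -0.35, Tnfrsf13b by -0.35 and Csf1 by -0.0037. At day 5, Il6 changed by -0.70 against untreated samples (-0.05 without untreated replicate 4), Il13 by 0.39, Csf1 by -0.22, Csf2ra by -0.18, Ifnar1 by -0.22 and Tnfrsf22 by 0.19. None of these passed the test, with adjusted p of at least 0.13. Between day 5 and day 2, the uncalled changes were 0.54 for Tnfrsf23, -0.51 for Tnfrsf18, 0.52 for Cxcl12, 0.45 for Tnfsf13b, -0.41 for Ccl6, 0.38 for Il17ra and -0.33 for Il17rc. Without day 5 replicate 2 the change of Tnfsf13b was 0.06, without day 2 replicate 3 that of Il17ra was 0.16, and without day 2 replicate 2 that of Il17rc was -0.12. Ifna2 changed by -0.36, Ifng by -0.31, Il17a by -0.30, the Ccr1-like receptor gene Ccr1l1 by 0.26, Csf1 by -0.22 and Tgfb2 by 0.06 between those days. Leaving out 1 sample brought some past the threshold: Tnfrsf23 without day 1 replicate 3 (0.54) or day 2 replicate 1 (0.66), Ifna2 without day 5 replicate 1 (-0.58), Ifng without day 2 replicate 2 (-0.50) and Il17a without untreated replicate 1 (-0.30).

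In untreated samples the ratio of blood over marrow differed widely between genes. The highest group means were those of Il1b (1.38 ± 0.40), Il4ra (1.31 ± 0.37), Ccl6 (1.25 ± 0.59), Tgfbr2 (1.18 ± 0.21) and Tnfrsf18 (1.05 ± 0.29; SD, n = 4 each). The Il1b mean was an average of 2 unlike probes, at 0.50 and 2.27. The lower probe alone would lie below the other means just named. The lowest were those of Cxcl12 (-1.11 ± 1.45, n = 3), Tnfsf13b (-0.54 ± 0.48), Il16 (-0.51 ± 0.18), Ccl17 (-0.48 ± 0.64) and Il5ra (-0.46 ± 0.21; SD, n = 4 each). A positive value stands for more signal from blood than from marrow, after a normalization that the sources used here do not describe. Cxcl12 is made by marrow stromal cells, and its low mean rested on untreated replicate 4 at -2.78, with the other values at -0.18 and -0.35. The low mean of Ccl17 rested likewise on untreated replicate 3 at -1.42, with the other values at -0.21, -0.28 and -0.0040.

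As a description without a test, some pairs of genes varied together over the samples. Cxcl1 and Cxcl2 correlated with r = 0.67 over 14 samples, and with r = 0.65 after each group's mean was taken off. Cxcl2 and Il6 gave r = 0.60 over 15 samples, and 0.70 within groups. Untreated replicate 4 was high in all 3 of these genes. Il3ra and Csf2ra, receptor chains that share the same signalling subunit, gave r = 0.76 over 15 samples and 0.44 within groups. Tnfsf13 and its receptor Tnfrsf13b gave r = 0.42 over 15 samples and -0.03 within groups. All points of a pair share the array, the marrow pool and the cell makeup of the blood sample.

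Lists of genes that carry cytokine signals inside the cell were read beside the cytokine genes. Of 11 tested JAK and STAT pathway genes, 3 rose at day 2 against untreated samples, with 4.83% of all features called higher. Stat3, the factor downstream of IL-6 and G-CSF receptors, rose by 1.07 (SE 0.21, adjusted p = 0.0026). Socs1, an inhibitor of JAK kinases, rose by 0.58 (SE 0.15, adjusted p = 0.019). Irf9, the DNA-binding part of the interferon-activated complex, rose by 0.55 (SE 0.16, adjusted p = 0.036). Socs1 was also higher at day 1, by 0.64 (SE 0.15, adjusted p = 0.031). At day 5 against day 2, 5 of the 11 fell, with 12.7% of all features called lower. Their log2 changes were -1.59 for Stat3, -0.91 for Irf9 and -0.90 for Pias1 (an inhibitor of STAT proteins). They were -0.73 for Stat4 (the IL-12 factor) and -0.52 for Socs1, and adjusted p of the 5 lay between 9.84e-05 and 0.029. The median change of the 11 was 0.22 at day 2 against untreated samples, beside 0.06 over all features. Between day 5 and day 2 it was -0.48, beside -0.07 over all features. At day 5 against untreated samples it was -0.36, beside 0.0044 over all features, and 0 of the 11 were called.

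Of 12 tested NF-kappaB and adaptor genes, 1 rose at day 2 (4.83% of all features called higher). It was Myd88, the adaptor of IL-1 and Toll-like receptors, by 0.72 (SE 0.19, adjusted p = 0.023). At day 5 against day 2, 3 fell (12.7% of all features called lower). The changes were -1.10 for Myd88, -1.05 for the ubiquitin ligase Birc3 and -0.57 for the NF-kappaB subunit Rela, with adjusted p between 0.0012 and 0.046. Of 3 tested SMAD pathway genes (Smad2, Smad3 and Eng), the adjusted p against untreated samples was 0.11 or above, and between day 5 and day 2 Smad2 changed by -0.50 and the TGF beta co-receptor Eng by 0.60, both called. Of 14 tested cytokines and receptors under other names, Mif rose by 0.75 at day 1 (SE 0.16, adjusted p = 0.025) and Crlf2, the TSLP receptor chain, by 0.58 at day 2 (SE 0.16, adjusted p = 0.023). Ebi3, a subunit of IL-27 and IL-35, fell by 0.90 at day 5 against untreated samples (SE 0.19, adjusted p = 0.026). At day 5 against day 2, 2 of the 14 fell, with changes of -0.94 for Crlf2 (SE 0.17, adjusted p = 8.03e-04) and -0.91 for Ebi3 (SE 0.19, adjusted p = 0.0022). The neutrophil marker list rose and fell at the same times as Stat3, Myd88 and Il1rap, and its part in these changes was not tested.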

How the data were processed

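Blood leukocyte RNA was labelled with Cy5 and a bone marrow reference with Cy3, per the labels' protocols. Deposited were log ratios for each probe in 30 columns (15 samples, 2 technical replicates each), taken here as the authors' log2 ratios of Cy5 over Cy3. The sources used here do not give the base of the logarithm, the scanner, the background correction, the normalization or the reason for empty values; were the base e, every log2 value printed would be a natural logarithm. Between 5314 and 9398 of 13443 probes had a value in a column, and column medians lay between -0.0028 and 0.025. No intensity or depth accompanies the ratios, and the number of samples limits the precision. Probe names came from the platform table: 10032 probes had 1 gene symbol, 170 had several and 3241 had none.

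Technical replicates, then probes of 1 gene, were averaged, giving 13027 features, of which 6515 met the requirement on values. A model with 1 mean per group over all 15 samples was fitted with limma 3.58.1 in R 4.3.3 (lmFit and eBayes), and p-values were adjusted over the 6515 features by the Benjamini-Hochberg method. Genes with missing values were fitted on the samples that had one, with no value imputed. P-values measure the spread between independently harvested samples. The genes, pathway lists and marker lists were chosen with earlier results of these data known. Named are all called genes, the 2 uncalled genes of each role with the largest change in each comparison, the 5 highest and 5 lowest untreated ratios, and called genes of the lists, up to 5 per direction. The fit was checked on simulated data. Alternatives covered single technical replicates, quantile normalization, the requirement on values, 1 probe per gene, a robust prior, the replicate number, the samples fitted and each sample left out. Promoter windows are RefSeq's on GRCm38.p6; the files name no genome build, so gene coordinates other than those windows are not given.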

Additional observations from a re-analysis of the deposited data

Results flagged for a closer look

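In 6 of 108 groups of 4 values (5.56%), 1 sample stood far from the other 3, a share close to the 1 in 20 that chance gives. Il6 was 1.90 in untreated replicate 4, with the nearest other untreated value at -0.69, and 0.19 in day 1 replicate 3, with the nearest at -0.52. Day 1 replicate 3 also stood apart in Il17a, at 0.17 against a nearest value of 0.43, and in Tnfrsf23, at 0.42 against a nearest value of -0.05. Il4ra was 0.76 in untreated replicate 2, with the nearest untreated value at 1.45. Cxcl12 was -1.33 in day 2 replicate 3, with the nearest day 2 value at -0.51.

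The change against untreated samples differed between day 5 and day 2 for 12 genes, as tested by the contrast of day 5 minus day 2 with limma. The difference was negative for Il1rap (-1.07), Il18bp (-0.91), Tgfbr2 (-0.60), Cxcr3 (-0.59), Csf2ra (-0.49), Il3ra (-0.42) and Cxcl9 (-0.41). It was positive for Tnfsf13 (1.15), Ccl9 (0.83), Tnfsf4 (0.52), Il13 (0.50) and Tnfrsf13b (0.46).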

How the results depend on the processing

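Of the 23 calls of single genes, 5 were kept in every alternative run: Il1rap and Tnfsf13 in both the day 2 and the day 5 minus day 2 comparison, and Tnfsf4 between day 5 and day 2. Of the 23, 0 changed sign. At day 1 the count of 2 became 1 with technical replicate 1 alone, 5 with quantile normalization, 1 with no requirement on missing values and 5 in a fit of only the 2 groups. At day 2 the count of 9 became 3 with technical replicate 1 alone and 4 in the fit of 2 groups. Between day 5 and day 2 the count of 12 became 4 in the fit of 2 groups. At day 5 against untreated samples the count of 0 became 1 (Ccl6) with quantile normalization. Leaving out 1 sample at a time gave 0 to 3 calls at day 1, 4 to 10 at day 2, 0 to 1 at day 5, 6 to 14 between day 5 and day 2 and 8 to 14 in the F test. The count at day 1 was 0 without untreated replicate 3 or 4 or day 1 replicate 1, 2 or 4 and 1 without day 2 replicate 3. At day 2 it was 4 without untreated replicate 3 or day 2 replicate 4, and 5 without untreated replicate 4, day 1 replicate 1 or day 2 replicate 3. The lowest counts between day 5 and day 2 (6) and in the F test (8) came without day 5 replicate 2, and the 1 call at day 5 came without untreated replicate 2. With the replicate number as a block, 0 genes were called at day 1, 5 at day 2, 0 at day 5, 8 between day 5 and day 2 and 10 in the F test. The block is no pairing by design. Of 21 same-numbered pairs of samples, 6 had deviations from their group means that correlated above 0.1 (r from -0.28 to 0.17, median -0.03). Differently numbered pairs were not compared, so these values cannot tell whether same-numbered samples share more than a number. The cause of these shifts in the counts was not tested. Uncalled values that changed sign were Ccr10 at day 5 with 1 probe (-0.13), Il1b at day 1 with quantile normalization (-0.074), Cxcl12 at day 2 (-0.38) and Il6 at day 2 (0.20) without untreated replicate 4, and Csf1 at day 2, whose main change was near 0, in 6 settings: quantile normalization (0.0069) and without untreated replicate 1 (0.02), 3 (0.09) or 4 (0.04) or day 2 replicate 1 (0.10) or 2 (0.10). Tgfb2 changed sign at day 1 with technical replicate 1 alone (-0.10) and without untreated replicate 2 (-0.010) or day 1 replicate 4 (-0.014), and at day 2 with technical replicate 1 alone (-0.087) and without day 2 replicate 4 (-0.022). Leaving out 1 sample at a time, the changes ran from -0.16 to 0.10 for Csf1, from -0.38 to 0.92 for Cxcl12 and from -0.69 to 0.20 for Il6 at day 2, and for Tgfb2 from -0.014 to 0.13 at day 1 and from -0.022 to 0.15 at day 2. Of 76 named values not called, 15 were called in at least 1 alternative, and 51 moved by over 1.5 times when 1 sample was left out. The signal over background is not known.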
